A study of Arabidopsis thaliana with 3 samples.

Results

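One two-colour array compared leaves of the transgenic line AhNF-YC-OE, labelled with Cy5, with wild type leaves, labelled with Cy3, during recovery from drought. The members are all spots of that array annotated to an Arabidopsis locus, 29234 of the 87702 such spots on the 3 arrays of the series, and they stand for 26017 loci. Both RNAs came from rosette leaves of 5-week-old Col-0 Arabidopsis thaliana plants grown under a day of 16 h light and 8 h dark at 22 °C. Both genotypes had been without water for 8 days and were sampled 24 h after watering resumed, so the stress and the rewatering are common to both channels. For the remaining samples the protocol mentions only 5 days of stress. The sources used here do not give the promoter of the transgene, the number of independent lines or the number of plants pooled. The other arrays compared the same genotypes under normal growth and after 5 days of water stress.

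NF-Y is a transcription factor made of an A, a B and a C subunit. The B and C subunits pair through histone folds, and the A subunit then joins them and recognises the CCAAT box in promoters. In Arabidopsis each subunit is encoded by a gene family whose members take part in flowering, seed development and responses to abscisic acid (ABA) and drought. After rewatering, leaves break down ABA and proline that accumulated during drought, and genes for protective proteins such as dehydrins are switched down again. The ratio on this array asks how the 2 genotypes differ at that time.

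With 1 array and no exchange of dyes there is no replicate check and no p-value. A spot's dye bias and a genotype difference cannot be told apart. A log2 ratio sets AhNF-YC-OE over wild type after background correction and loess, and a gene was counted when it lay at least 2-fold apart. Median raw intensities of gene spots were 1399 in wild type against 962 in AhNF-YC-OE, over local backgrounds of 54.98 and 59.06. Spread between spots was read from 22 control features printed 236 times in all: within a feature, the pooled SD of the log2 ratio was 0.135. A gene name here is the name the array annotation gives a spot. For 1464 transcripts with 2 spots the correlation of level was 0.077 and that of the log2 ratio 0.193, as a description across spots of one slide. Whether each spot holds the gene its annotation names could not be checked here and the map may be wrong, so every value given for a gene is the value of the spot annotated to it. Levels of different probes do not rank expression, so they give no check of the leaf label. As a description, Calvin cycle spots had a median at the 61.8th percentile of spot intensity and nuclear light reaction genes at the 56.0th, while seed storage and oil body proteins stood at the 70.7th, floral and pollen genes at the 57.4th and root genes at the 37.9th.

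The genotypes differed little at most spots. Of 26006 loci above background, 97.9% lay within 1.5-fold, and the SD of the log2 ratio over them was 0.219. In the transgenic line 101 loci (0.388%) were lower by 2-fold or more, and 14 (0.0538%) were higher by as much. At 1.5-fold, 437 loci (1.68%) were lower and 118 (0.454%) higher. Both groups of 2-fold genes lay at the dim end of the array. When loci were ranked by intensity into 10 equal groups, 99 of the 101 lower loci fell in the dimmest 3 groups and all 14 higher loci in the dimmest 1. The SD of the log2 ratio was 0.324 in that dimmest group and 0.166 in the brightest.

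**Figure D1:**
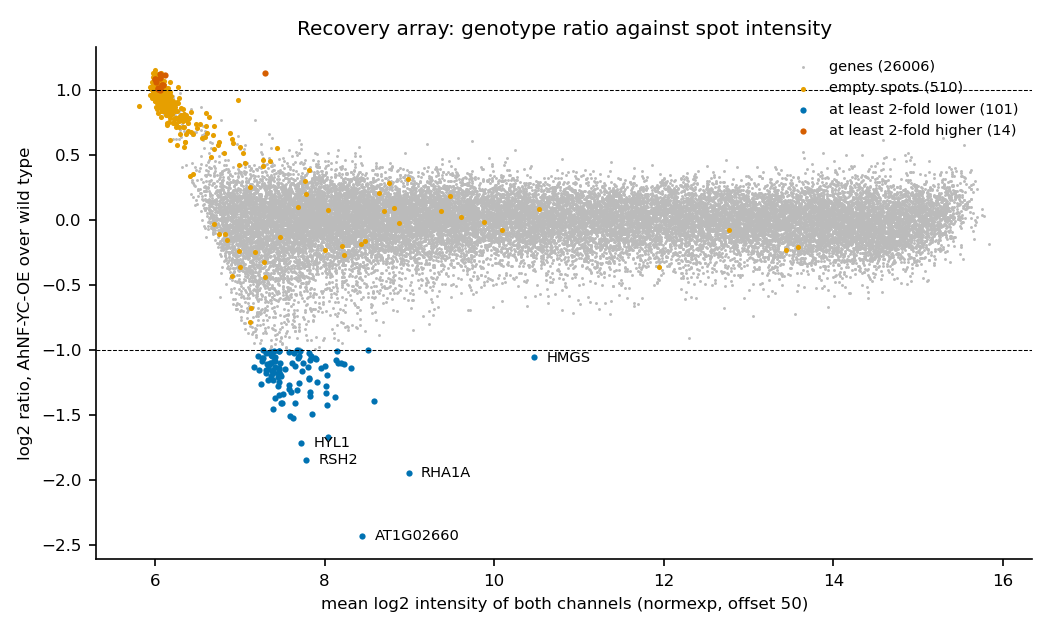
Genotype log2 ratio (AhNF-YC-OE over wild type, vertical) against the mean log2 intensity of both channels (horizontal) for 26006 genes in grey, with 510 empty spots in orange, 101 lower genes in blue and 14 higher genes in red. The dashed lines mark 2-fold; all but 1 of the higher genes sit among the empty spots, and the lower genes lie below a band of dim genes.

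The lower group contained 35 loci with a gene name. Over all 101, raw wild type intensity ranged from 294 to 4938 with a median of 396, and raw AhNF-YC-OE intensity from 64.7 to 1016 with a median of 82.5. The typical lower gene was therefore a spot of clear wild type signal whose AhNF-YC-OE signal lay not far above background. All 101 outshone 95% of the empty spots in one channel or both (0.442% of the 22836 loci that did), which their higher channel, wild type, decided and which lends the group no support. The 95th percentile of empty spots was 260 in wild type against 143 in AhNF-YC-OE. All 101 kept a negative ratio under every treatment of the intensities that was tried. Under all 6 treatments together 50 loci (0.193% of 25912), 18 of them named, were at least 2-fold lower. Plain subtraction, no background correction and median centring each kept all 101, the authors' values 85 and print-tip loess 50. The number was thus set by print-tip loess and is not support from 6 separate checks. Median centring left the dimmest 3 of 10 groups at medians of −0.48, −0.44 and −0.30, so it could hardly drop a dim lower locus.

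The lowest ratio belonged to AT1G02660, a locus without a name in the reference table, singled out after its values were seen. It read 1065 in wild type against 109 in AhNF-YC-OE, a log2 ratio of −2.43. Wild type was thus far above its background at this spot, while AhNF-YC-OE was close to it. On the normal growth and water stress arrays the same spot stood at 0.16 and −0.52.

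RHA1A, which encodes a RING-H2 finger protein, read 1272 in wild type against 198 in AhNF-YC-OE, a log2 ratio of −1.95. It was low to a like extent on the other arrays, at −2.14 under normal growth and −1.83 under water stress. RSH2 (AT1G12950), listed among root hair specific genes, read 575 and 83.6, a log2 ratio of −1.85. It was also more than 2-fold lower under water stress, at −1.34, but stood at −0.19 under normal growth. HYL1, the double-stranded RNA-binding partner of DICER-LIKE1 in microRNA processing, read 529 and 80.8, a log2 ratio of −1.72. It stood at −0.34 under normal growth and at −0.01 under water stress, so of the 3 arrays only recovery had it 2-fold apart.

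Among regulators and signalling genes, MYB110, a MYB transcription factor, read 451 in wild type against 86.7 in AhNF-YC-OE, a log2 ratio of −1.41. WRKY10, known from its role in endosperm growth, read 415 and 84.9, a log2 ratio of −1.30. NGA3, a B3-domain factor of the NGATHA family that shapes lateral organs, read 316 and 69.2, a log2 ratio of −1.08. At these 3 factors wild type stood several-fold above its background and AhNF-YC-OE close to it, which is the form of the lower group as a whole. IQD18, of a family of calmodulin-binding proteins, stood at −1.25, ING2, a PHD-finger reader of histone methylation, at −1.04, and PMZ, a stress-associated zinc finger protein, at −1.10. LAS, which promotes axillary meristems as a GRAS protein, was at −1.43 and not 2-fold apart under print-tip loess, at −0.93.

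Metabolic and transport genes of the same group included ABCG14, which exports cytokinin from roots to the shoot. Its spot read 328 in wild type against 72.5 in AhNF-YC-OE, a log2 ratio of −1.11. PMSR2, a reductase that repairs oxidised methionine, read 412 and 87.0, a log2 ratio of −1.27. PPa1, a soluble inorganic pyrophosphatase, read 472 and 73.4, a log2 ratio of −1.34. TBL38, of the TBL family of wall polysaccharide acetylation, stood at −1.22 and NTMC2T6.1, a membrane protein with a C2 domain, at −1.28. PRK, phosphoribulokinase, which regenerates the acceptor of carbon dioxide, read 629 and 124, a log2 ratio of −1.36, which was −0.87 under print-tip loess. PEN3 (AT5G36150), a triterpene synthase, was at −1.35 and at −0.86 under print-tip loess.

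**Figure D2:**
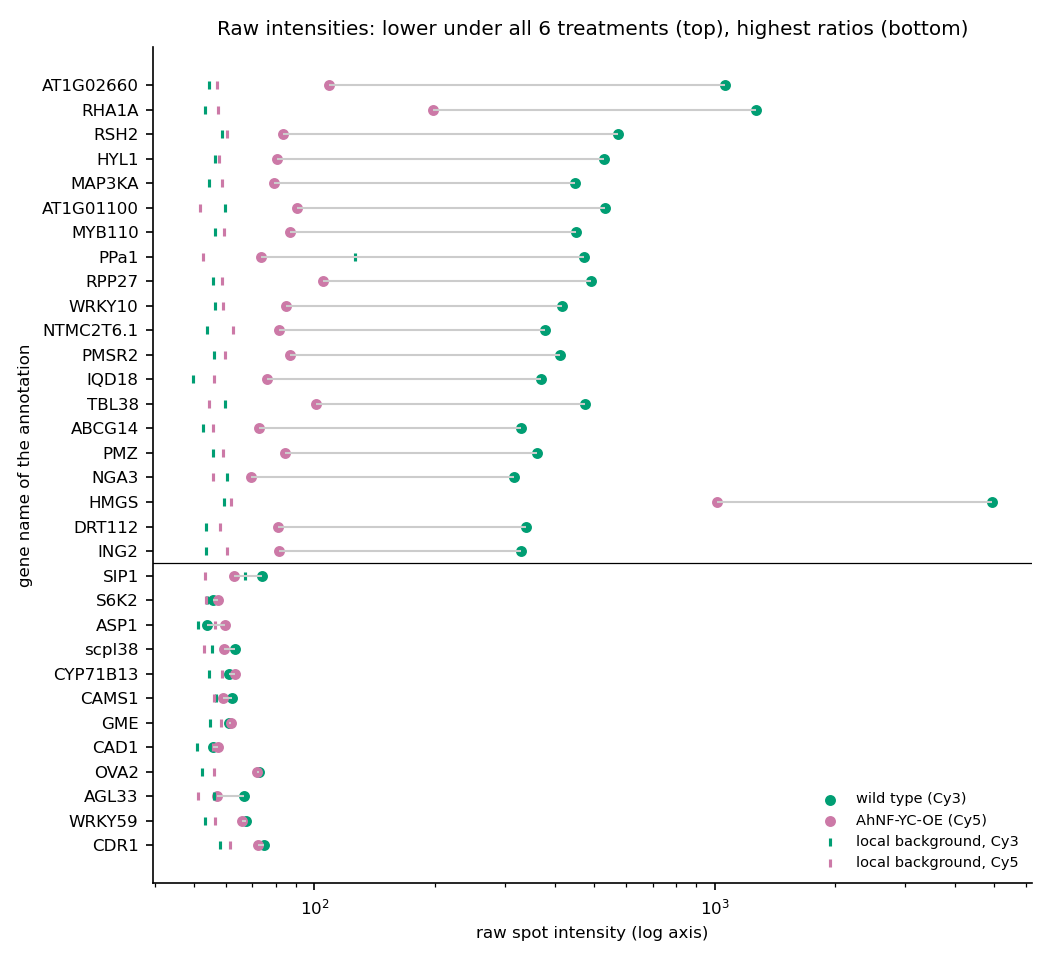
Raw spot intensity on a log axis in wild type (green points) and AhNF-YC-OE (pink points), with each channel's local background as a tick, for the loci at least 2-fold lower under all 6 treatments that have a name or are named in the text (above the line) and for the 12 named genes with the highest ratios (below the line). In the upper group wild type exceeds AhNF-YC-OE at every gene, while in the lower group both points lie near the backgrounds.

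Repeated spots were available for 4 of the 101 lower loci, and the other 97 rested on 1 spot. AT1G01100, without a name in the table used, had 3 spots, at log2 ratios of −1.495, −0.756 and −0.712. RPP27, a disease resistance gene against downy mildew, had 2, at −1.63 and −1.02. At these loci every spot was lower in AhNF-YC-OE by more than the SD between control spots. RPP27 was counted on the mean of its 2 spots and AT1G01100 on its first spot, so those values follow in part from the choice. Over loci of their intensity group the SD of the log2 ratio was 0.319. Between 2 spots of a transcript the SD per spot was larger, at 0.197. The lowest spot of each locus lay at a place with many lower spots, as given below. On the normal growth array the last 2 spots of AT1G01100 read 113 and 5904 in wild type, so they did not repeat each other in level. MAP3KA, a MAP kinase kinase kinase, had 1 probe at −1.51 and another whose 2 spots stood at 0.20 and −0.44, so its place in the group rested on 1 spot. HMGS, the cytosolic HMG-CoA synthase of the mevalonate pathway, had 2 spots of one transcript that disagreed. The first read 655 in wild type against 409 in AhNF-YC-OE, a log2 ratio of 0.03, and the second read 9221 and 1623, a log2 ratio of −2.14. The second spot stood at 0.23 under normal growth and 0.05 under water stress, and at the mean of both spots HMGS was at −1.06. It was the only lower locus brighter than the array median.

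The other enzymes of the mevalonate pathway, looked up after the HMGS value was seen, lay close to equal between genotypes. ACAT2, the thiolase of the first step, was at 0.06. The HMG-CoA reductases HMG1 and HMG2 were at 0.14 and −0.05. Mevalonate kinase (MK) was at −0.24 and the decarboxylase MVD1 at −0.02. The farnesyl diphosphate synthases FPS1 and FPS2 were at −0.07 and −0.03. None of these 7 lay 1.5-fold apart.

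CIPK9, a calcium sensor-regulated kinase of potassium nutrition, and AT3G28140, without a name in the table used, were the other loci whose probes all lay at least 1.5-fold lower. CIPK9 had one probe at −0.63 and one at −0.73, and AT3G28140 had −0.68 and −0.78. Neither reached 2-fold.

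Where a gene was printed moved with the ratio. The slide has 48 blocks of 25 by 25 spots, and each place within the block therefore recurs 48 times, with neighbouring loci at the same place in different blocks. Of 117 lower gene spots, 44 (37.6%) lay at 5 of the 623 places that hold genes, although these 5 places hold 0.753% of gene spots. They were picked as the places with at least 5 lower spots on this array, so their excess follows in part from the choice. At row 4, column 4, 16 of 44 gene spots were at least 2-fold lower and 41 of 44 were below 0, with a median log2 ratio of −0.83 and median raw intensities of 468 in wild type against 136 in AhNF-YC-OE. At row 13, column 5, 9 of 44 were lower, with a median of −0.74, and at row 1, column 25, 9 of 44, with a median of −0.38. Row 2, column 10 and row 3, column 11 had 5 each, with medians of −0.13 and −0.12. The median over all places was 0.00.

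On the other arrays row 4, column 4 and row 13, column 5 stood out less. At row 4, column 4 the median was −0.06 under normal growth and −0.16 under water stress, and at row 13, column 5 both were −0.06. At row 1, column 25, row 2, column 10 and row 3, column 11 the water stress medians were −0.23, −0.17 and −0.23. The last 2 were below those of recovery. Under normal growth these places had medians of 0.02, −0.09 and −0.08. The 5 places together held 0 of 2 lower gene spots on the normal growth array. On the water stress array they held 7 of 100, beside 0.753% of gene spots. Because the places were chosen on recovery, a smaller share elsewhere follows in part from the choice. In recovery the pattern remained under print-tip loess, which fits each block separately, with medians of −0.85 at row 4, column 4 and −0.66 at row 13, column 5.

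Many of the lower genes named above belong to these places. MAP3KA, RPP27, ING2 and NTMC2T6.1 had a lower spot at row 4, column 4, and MYB110 and PMZ at row 13, column 5. PPa1, IQD18, NGA3 and the lowest spot of AT1G01100 were printed at row 1, column 25. TBL38 and ABCG14 were printed at row 3, column 11. In all, 39 of the 101 lower loci had a lower spot at one of the 5 places, among them 30 of the 50 that were lower under all treatments and 11 of the 18 with a name. The named loci lower under all treatments and printed at other places were RHA1A, RSH2, HYL1, WRKY10, DRT112, HMGS and PMSR2. Rows 1 to 4 of the block held 81 of the 117 lower spots, with 1184 to 1188 of 29234 gene spots in each row. HYL1 and AT1G02660 lay in row 1, RSH2 and DRT112 in row 2 and WRKY10 in row 4. RHA1A and HMGS lay in row 16 and PMSR2 in row 20. How much of any single ratio came with the place, the row or the block was not tested.

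The block also moved with the ratio. Block medians of the log2 ratio ranged from −0.27 to 0.19. The upper 2 of the 12 rows of blocks held 53 of the 117 lower spots but 15.8% of gene spots, with medians of −0.21 and −0.15. The lowest 2 rows held 23 lower spots and 16.9% of gene spots. The top row of blocks also held 9 of the 28 higher gene spots, and the bottom row 7. These rows hold 2307 and 2466 of the 29234 gene spots. Chromosome 1, whose loci fill the first rows of each block, carried 75 of the 101 lower loci, and 36 of the 50 lower under all treatments. It holds 25.8% of all tested loci, and 1.12% of its loci were lower, beside 0.388% over all chromosomes.

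**Figure D3:**
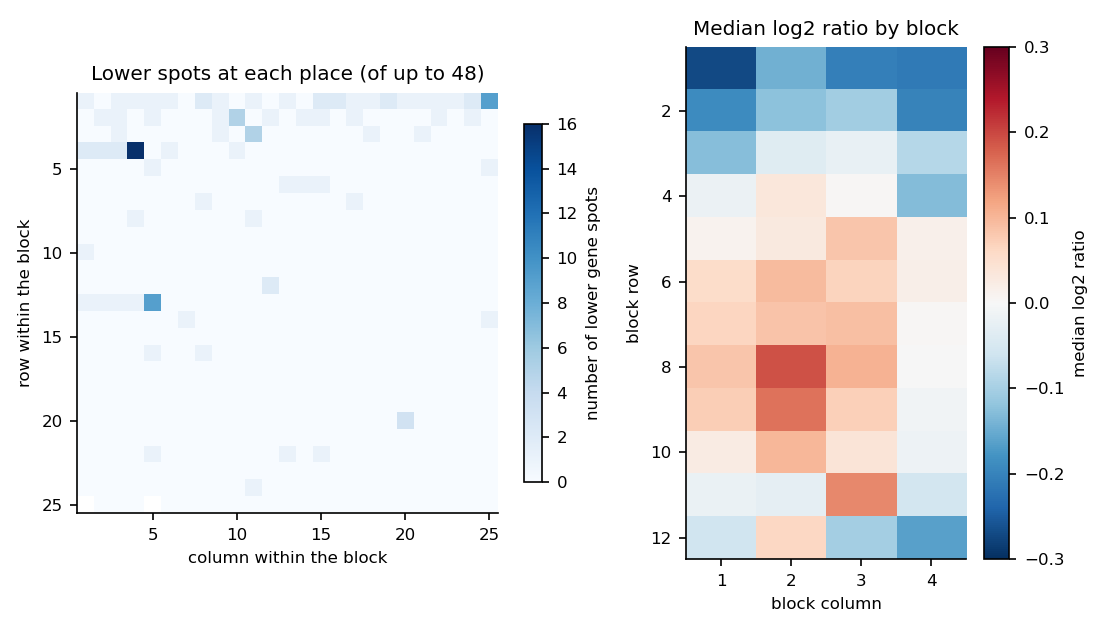
Left, the number of gene spots 2-fold or more lower in AhNF-YC-OE at each place (row and column within the block), added over the 48 blocks; right, the median log2 ratio of each of the 48 blocks by its position on the slide. The darkest place, row 4 and column 4, holds 16 lower spots, and the upper rows of blocks have the lowest medians.

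The 14 higher loci were close to background in both channels. All but 1 had raw intensities between 53.9 and 74.0 in wild type and between 56.1 and 68.0 in AhNF-YC-OE, and in 4 the wild type channel was not above background. The 510 empty spots had median raw intensities of 64.4 and 61.0, in the same range. After the same normalization their median log2 ratio was 0.95, and 29.6% of them lay at least 2-fold higher. Spots without a gene probe therefore read nearly the same ratio, and no genotype difference is read from these 13 loci. Of the 14, 0 remained at least 2-fold higher under median centring and 7 under print-tip loess, and 1 had a value in the authors' deposited table. Under all 6 treatments 0 loci (0%) were at least 2-fold higher. Median centring left the dimmest group, which holds all 14, at a median of −0.48, and a locus without an authors' value could not count. For the 14 this outcome was thus largely set by the treatments, and it is no comparison with the lower loci. SIP1, a member of the raffinose synthase family, read 74.0 in wild type against 62.8 in AhNF-YC-OE, with a log2 ratio of 1.12 after correction and loess, so its raw ratio lay below 1 and its normalized ratio above. S6K2, a ribosomal protein S6 kinase, read 55.7 and 57.2 and ASP1, an aspartate aminotransferase, read 53.9 and 59.9. Their wild type channel was not above background, and no fold is given for them. The 1 higher locus (0.00438% of 22836) brighter than 95% of empty spots was AT5G25400, without a name in the table used and singled out after its values were seen. It read 145 in wild type against 164 in AhNF-YC-OE, a log2 ratio of 1.14, and stood at 1.02 and 2.07 on the normal growth and water stress arrays. Under median centring its recovery ratio was 0.68. AT5G25400 passed the filter on brightness only through AhNF-YC-OE, its higher channel, which lends it no support. Its 145 in wild type lay below the 95th percentile of empty spots there, 260, and its 164 above that of AhNF-YC-OE, 143.

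Side by side with the other arrays, the lower loci of recovery were mostly below 0 there too. Their median was −0.16 under normal growth, with 88 of 101 below 0 and 1 at least 2-fold lower. Under water stress the median was −0.67, with 98 of 101 below 0 and 18 at least 2-fold lower. Over all tested loci the medians were −0.01 and 0.00, and 0.00769% and 0.335% were at least 2-fold lower. Of these 26006 loci, 13388 were below 0 under normal growth and 12908 under water stress. The 14 higher loci had a median of 0.27 under normal growth and 1.82 under water stress, where 12 were at least 2-fold higher. All 3 arrays were printed alike and labelled the same way round. Over all tested loci 0.0923% and 0.488% were at least 2-fold higher on these arrays.

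**Figure D4:**
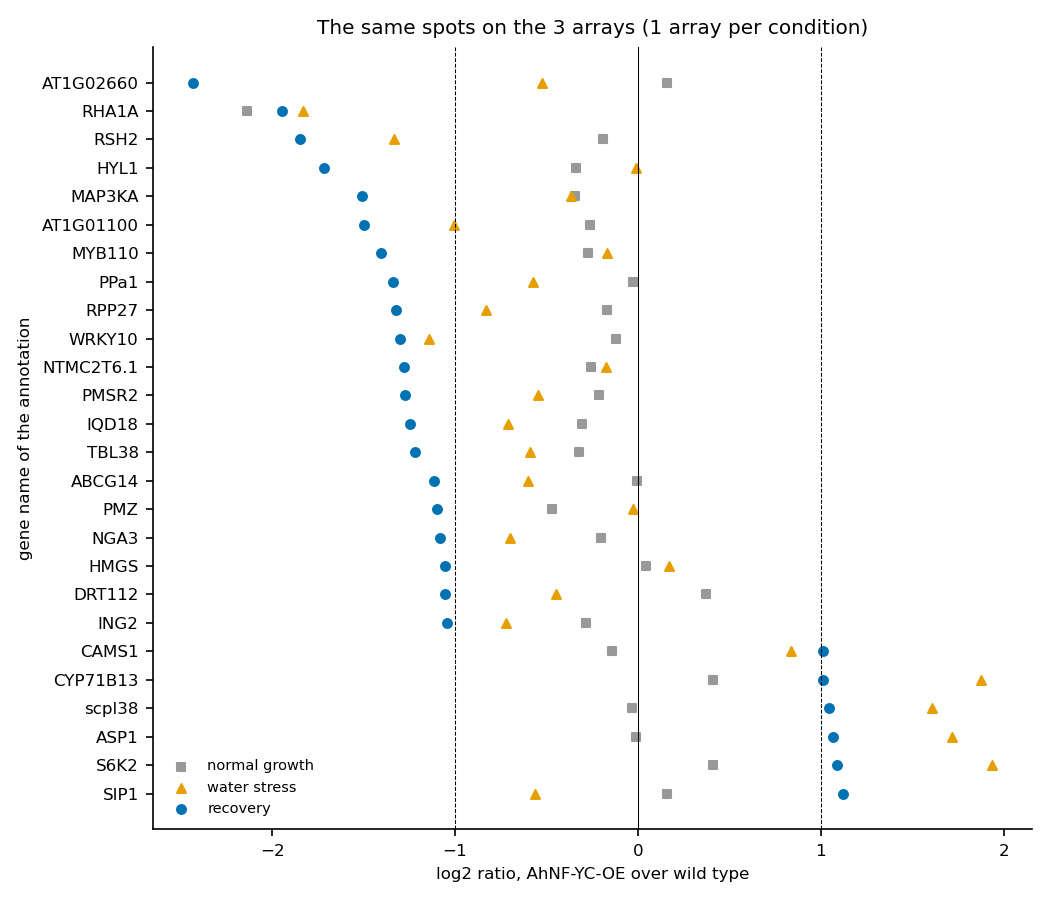
Genotype log2 ratio (AhNF-YC-OE over wild type) on the recovery array (blue circles), under normal growth (grey squares) and under water stress (orange triangles) for loci lower under all 6 treatments that have a name or are named in the text, and for the 6 named higher genes; dashed lines mark 2-fold. RHA1A is below the lower line on all 3 arrays, HYL1 only in recovery.

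The NF-Y genes of Arabidopsis itself lay within 1.5-fold between genotypes at all 36 measured loci, with 19 above 0 and 17 below. Since 97.9% of all tested loci lay within 1.5-fold, this sets the NF-Y genes apart in nothing. Over the 10 NF-YA genes, which encode the subunit that reads the CCAAT box, the median log2 ratio was 0.14 and the range −0.30 to 0.51. NF-YA3 was the highest, with raw values of 357 in wild type against 291 in AhNF-YC-OE, and its other probe stood at 0.03. Over the 13 NF-YB genes the median was −0.03, from −0.49 for NF-YB8 to 0.49 for NF-YB3. NF-YB8 read 11686 and 7209 at its brightest probe, while a second probe, at 432 and 240, stood at −0.01. The dimmest probe stood at 0.82 from raw values of 76.0 and 61.6, the level of empty spots, and says nothing of the gene. Over the 13 NF-YC genes, the relatives of the transgene, the median was 0.03, from −0.49 for NF-YC2 to 0.39 for NF-YC11. NF-YC2 read 315 and 113, NF-YC11 997 and 875, and under print-tip loess they stood at −0.20 and 0.20. NF-YC3 stood at −0.32 and NF-YC10 at 0.34, and the remaining NF-YC genes lay between these, with NF-YC12 and NF-YC13 at 0.09 and −0.13. The annotation holds no probe for the transgene, so its own level was not measured.

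Genes of ABA and drought responses spread about 0 as all loci did. Across 8 lists (ABA metabolism, receptors, PP2C phosphatases, SnRK2 kinases, transcription factors, dehydrins, RD and COR genes, proline metabolism) 122 loci were measured. Of these, 61 were above 0 and 61 below, the median log2 ratio was −0.00, and 3 (2.46%) lay at least 1.5-fold lower and 1 (0.820%) higher, beside 1.68% and 0.454% of all loci. None of the 122 was 2-fold apart, which at the overall shares of 0.388% and 0.0538% is no result about these genes. The proline dehydrogenase ProDH1 (ERD5 in the table), which breaks proline down after rewatering, read 7135 in wild type against 6129 in AhNF-YC-OE, a log2 ratio of 0.05. P5CS1, which makes proline, read 9202 and 6321, a log2 ratio of −0.30. Both ends of proline turnover thus stood within 1.5-fold of equal.

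ABA metabolism gave like values. NCED3, the drought-induced enzyme of ABA synthesis, stood at −0.07, and the ABA hydroxylases CYP707A1 and CYP707A3, which inactivate ABA, at 0.08 and −0.12. BGLU18, which frees ABA from its glucose ester, was the lowest of its list with raw values of 323 and 111 and a log2 ratio of −0.64, and its AhNF-YC-OE channel did not exceed the background mean plus 2 SD. NCED9 was the highest at 0.45. Among receptors PYL5 stood at 0.74, the 1 member of the 8 lists at least 1.5-fold higher, from raw values of 87.7 and 73.5 near background.

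Targets of drought signalling were nearly level too. RD29A (LTI78) read 34467 in wild type against 49355 in AhNF-YC-OE, a log2 ratio of 0.25. RD29B (LTI65) stood at 0.09 and RAB18, an ABA-induced dehydrin, at 0.21. COR47, another dehydrin, read 1042 and 403, a log2 ratio of −0.67, which was −0.35 under print-tip loess, and ERD10 stood at −0.18. Of the transcription factors RD26 was at −0.02, HB-12 the highest at 0.48, and NAC019 the lowest at −0.78 from raw values of 364 and 100. SNRK2.2, a kinase that transmits the ABA signal, was the lowest of its list at −0.53 and HAI1 the lowest PP2C at −0.25. Under print-tip loess these stood at −0.18 and −0.08. SNRK2.2, with raw values of 226 and 78.2, was not brighter than 95% of empty spots.

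Lists of water transport, wall loosening and photosynthesis genes gave medians near 0. Over 34 aquaporin genes the median was 0.02, from −0.57 for PIP1C to 0.39 for PIP1;4, whose other probe stood at −0.36. The widely used leaf aquaporin PIP2;1 (PIP2A) stood at −0.03. Over 67 expansin and XTH genes, which loosen the wall during growth, the median was 0.02 and 0 lay 1.5-fold apart. Of 23 Calvin cycle genes PRK was the 1 at least 2-fold lower, and the median was −0.05. Of 54 nuclear light reaction genes the plastocyanin gene DRT112 was the 1 at least 2-fold lower, with raw values of 338 and 80.9 and a log2 ratio of −1.05, and the median was −0.02. Hydrogen peroxide and superoxide removal had a median of −0.01 over 36 genes, from −0.35 for APX1 to 0.33 for CSD1.

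Across the remaining lists the members past 2-fold were few. Among 62 cell cycle genes 3 were lower: the cyclin CYCB3;1 at −1.19, the centromeric histone gene HTR12 at −1.11 and the kinase gene cdc2cAt at −1.01. Under print-tip loess these stood at −0.86, −0.75 and −0.53. HYL1 was the 1 of 29 small RNA processing genes and WRKY10 the 1 of 71 WRKY genes past 2-fold. Of 34 clock and flowering genes, with a median of 0.04, LHY was the lowest at −0.92, with raw values of 295 and 70.8. GI was the highest at 0.39. Under print-tip loess LHY stood at −0.66 and GI at 0.15. ARR4, a cytokinin response regulator, stood at −0.81 and SHY2, an Aux/IAA repressor, at −0.73, and under print-tip loess at −0.33 and −0.24. In 30 lists with 910 distinct genes, 7 genes (0.769%) were at least 2-fold lower and 1 (0.110%) higher, beside 0.388% and 0.0538% of all loci. In 29 of the 30 lists the median lay within 0.1 of 0, and nothing particular to a list is read from these counts.

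**Figure D5:**
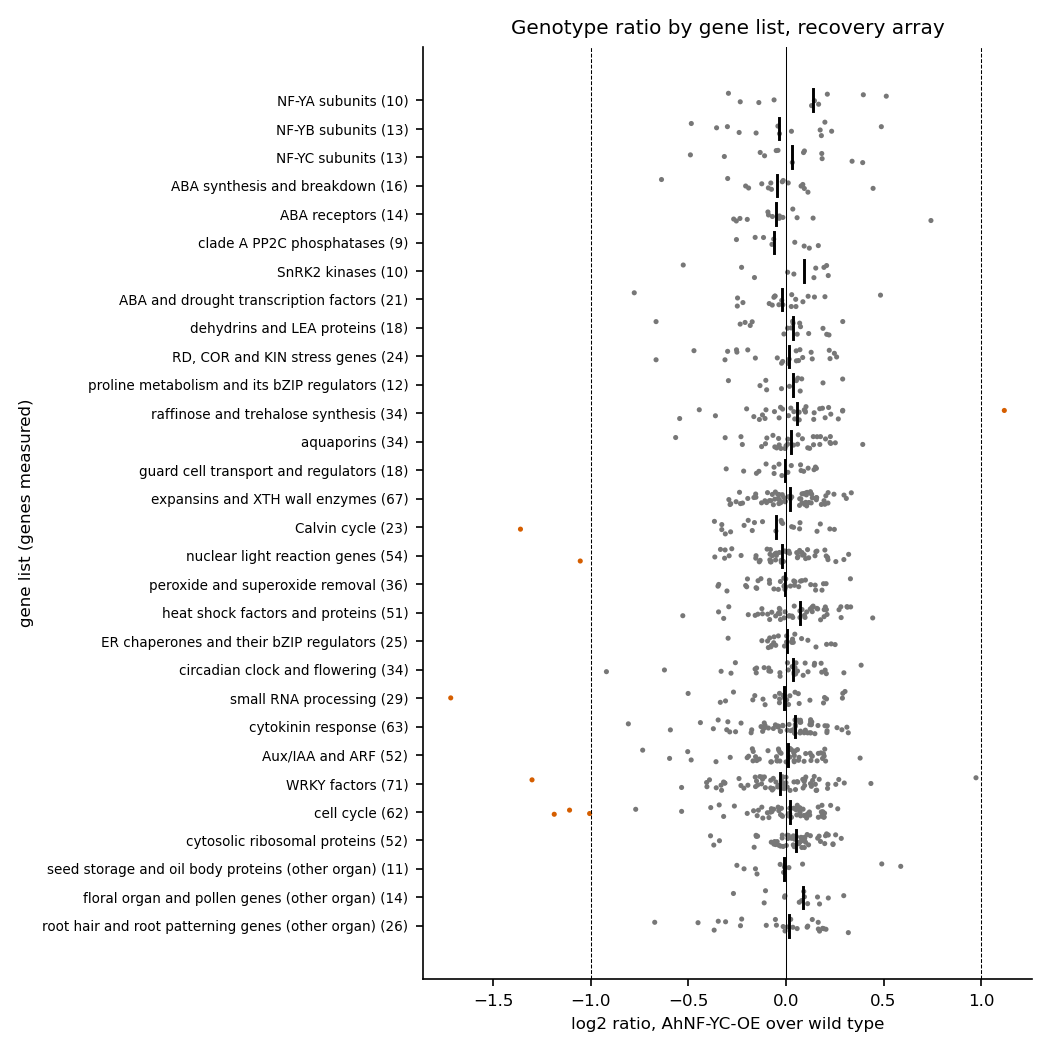
Genotype log2 ratio (AhNF-YC-OE over wild type) in recovery for every measured member of 30 gene lists (points, vertical scatter for legibility), with the list median as a black bar, members at least 2-fold apart in orange and 2-fold as dashed lines. Medians lie between −0.06 and 0.14, and single members, not lists, reach 2-fold.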

How the data were processed

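The deposited scanner files hold a mean spot intensity and a mean local background intensity per channel, with the background SD, per the file headers. The authors also deposited processed intensities per channel and their log2 ratio, AhNF-YC-OE divided by wild type. In that file the Cy3 value equalled raw minus background, cut to a whole number, at 100% of 25901 compared spots; the sources used here do not give the scaling of the Cy5 values, the scanner or the software. The label fields give Cy3 and Cy5, whereas Alexa dyes appear in the labelling protocol.

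From the raw intensity, background was corrected with normexp (offset 50) and each ratio normalized by loess over intensity, giving control and empty spots no weight (limma 3.58.1, R 4.3.3). Spots of a transcript were averaged and a locus was represented by its brightest probe. A locus was tested when its brighter channel exceeded the background mean plus 2 SD. The ratio steps were tested on simulated intensities, with changed spots placed only above the dim end and no effect of place on the slide. That check does not cover the dim spots, where most loci counted here lay. Tables and figures used Python 3.11.15, pandas 2.3.3, numpy 2.4.6 and matplotlib 3.10.9.

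The 6 treatments are the main one, plain subtraction, no background correction, median centring, print-tip loess and the authors' log2 ratios. Means over probes and 3 other intensity filters were also tried. Locus codes are those of the array annotation. The RefSeq table of GCF_000001735.4 (TAIR10.1) gave names only, for 25818 loci found in it. Lists were matched by symbol or synonym, and 61 matches to other genes that share a symbol were left out. Genes that could be named were the 12 highest and 12 lowest named genes and named genes 2-fold apart under all 6 treatments. List members 2-fold apart or at the extremes of a list, every NF-YC gene and fixed drought genes could also be named. So could loci whose probes all lay 1.5-fold apart the same way. Not every such gene is described in the text. Members, lists and rules were chosen with earlier results of these data known. The water stress and normal growth arrays entered no calculation of recovery ratios. Precision is limited by having 1 array.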

Additional observations from a re-analysis of the deposited data

Results flagged for a closer look

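Of the 115 loci at least 2-fold apart in recovery, 6 had the opposite sign under normal growth and 2 under water stress, by at least the SD between control spots (0.135). None of these differences between arrays was tested, since each condition has 1 array. Among the genes named in the text, AT1G02660 stood at −2.43 in recovery and 0.16 under normal growth. The plastocyanin gene DRT112 stood at −1.05 in recovery and 0.37 under normal growth. HMGS stood at −1.06 in recovery and 0.17 under water stress, with the disagreement of its 2 spots given above. SIP1, near background, stood at 1.12 in recovery and −0.56 under water stress. CAMS1, a triterpene synthase gene with raw values of 62.2 and 59.2, stood at 1.01 in recovery and −0.14 under normal growth.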

How the results depend on the processing

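The number of higher loci, 14, became 125 with plain background subtraction, 32 without background correction, 151 with median centring, 27 with print-tip loess, 58 in the authors' deposited table and 23 without the filter on dim spots. Of the 14 themselves, 0 remained 2-fold higher with median centring. The number became 1 among loci brighter than 95% of empty spots and 0 among those above the median intensity of the array. The number of lower loci, 101, became 331, 385, 55 and 193 with plain subtraction, median centring, print-tip loess and the authors' deposited table, and 1 above the median intensity. It was 119 without background correction, 100 with the mean of probes and 101 with the other filters. The causes of these shifts were not tested, other than that the last filter leaves 13003 loci. Median centring moved 9 of the 30 list medians by at least 0.135, and no other treatment moved one that far. The medians became 0.55 for NF-YB, 0.22 for ABA receptors, 0.33 for PP2C phosphatases, −0.14 for SnRK2 kinases, 0.12 for ABA and drought transcription factors, 0.17 for dehydrins, 0.15 for peroxide removal, 0.28 for seed storage proteins and −0.19 for root genes. Median centring leaves the slope of the ratio on intensity in place, from a median of −0.48 in the dimmest of 10 groups to 0.68 in the brightest. No gene past 2-fold reversed its sign under any treatment that gave it a value. No paired analysis was possible because there is 1 array per condition, and no replicate could be left out for the same reason.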
